A study of Mus musculus with 6 samples.

Results

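Chemokine ligands are small secreted proteins that bind receptors on leukocytes and direct where these cells move. The family is named after its conserved cysteines, which lie side by side in CC ligands and are separated by a single residue in CXC ligands. Monocytes are both a source and a target of these proteins, since *Ccl2* acts through *Ccr2* to bring classical monocytes out of the bone marrow and into inflamed tissue. Transcription of many ligands is rapidly induced by NF-κB or by interferon, and a further small set, among them *Ccl22* and *Ccl24*, is known to be induced by IL-4 through STAT6.

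The 10 ligands described here are *Ccl2*, *Ccl3*, *Ccl4*, *Ccl5*, *Ccl6*, *Ccl9*, *Cxcl2*, *Cxcl9*, *Cxcl10* and *Cxcl16*. They were chosen by name from the 55421 genes of the count files, and all 10 had enough reads to be tested. Bulk RNA sequencing was done on monocytes from the spleens of C57BL/6 mice, 3 that lacked *Il4ra*, the gene of the alpha chain of the IL-4 receptor, in full (IL-4Rα-/-) and 3 of wild-type genotype (IL-4Rα+/+), with 1 library per mouse. In the full knockout the receptor chain is missing from every cell and not only from monocytes. Mice were untreated as far as the labels state, and the study used animals of 8 to 16 weeks. Monocytes were enriched from splenocytes by negative selection, in which antibodies and magnetic beads remove other cells. The comparison asks whether ligand transcripts in splenic monocytes depend on IL-4Rα.

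Between 26807281 and 29033297 reads per library were counted on genes, and 13849 genes passed the filter for a test. *Il4ra*, the targeted gene (ENSMUSG00000030748.9, chr7:125552120-125579474, plus strand, GRCm38), was at 137, 128 and 177 CPM, which are counts scaled to a common library size, in the IL-4Rα+/+ libraries 1, 2 and 3. It was at 27.9, 79.4 and 31.8 CPM in the IL-4Rα-/- libraries 1, 2 and 3, so that it was lower in all 3 knockout mice, with the highest level among them in IL-4Rα-/- 2. Its log2 difference was -1.67 (SE 0.41, n = 3 per genotype), with an adjusted p of 0.618 by edgeR and of 0.0111 by DESeq2. Monocyte markers were high in every library, with a summed level of 20170 to 23448 CPM in IL-4Rα+/+ and of 21453 to 23792 CPM in IL-4Rα-/- mice. *Lyz2* alone was at 8847 to 17025 CPM, so similar sums do not show a similar makeup of the monocytes. Markers of some other cells were present as well, and their levels are given with the results they touch. As RNA came from bulk samples, fewer cells of a type and less RNA per cell cannot be told apart in any of these values.

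The stretch around the conserved cysteines is what separates the CC from the CXC ligands, and it is shown for 6 of them as coding sequence of GRCm38, with the cysteine codons in capitals. *Ccl6* and *Ccl9* are included because they are close relatives and the most abundant ligands here.
Ccl2 (chr11:82036491-82036526, plus strand, exon 2): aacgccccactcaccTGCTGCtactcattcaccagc
Ccl6 (chr11:83589371-83589406, minus strand, exon 3): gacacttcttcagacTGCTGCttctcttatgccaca
Ccl9 (chr11:83575911-83575946, minus strand, exon 3): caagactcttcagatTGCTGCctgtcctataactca
Cxcl2 (chr5:90904127-90904165, plus strand, exon 2): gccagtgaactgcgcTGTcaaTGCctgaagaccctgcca
Cxcl10 (chr5:92348166-92348204, minus strand, exon 2): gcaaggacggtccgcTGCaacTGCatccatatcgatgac
Cxcl16 (chr11:70459112-70459150, minus strand, exon 2): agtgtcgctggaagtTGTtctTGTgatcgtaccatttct
The cysteine codons are adjacent in the CC ligands and have 1 codon between them in the CXC ligands. *Cxcl2* alone of the 10 has codons for glutamate, leucine and arginine directly before the first cysteine, a motif known from the CXC ligands that attract neutrophils. The longest coding stretch that any of the 10 shared letter for letter with another was 23 bases, between *Ccl6* and *Ccl9*, which is shorter than the 75 bp reads.

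The ligands covered a wide range of levels. Per kb of exon, *Ccl6* was highest with 294 ± 31.6 CPM per kb (SD over the 6 mice), followed by *Ccl9* with 153 ± 43.0 and *Ccl5* with 93.4 ± 45.7 CPM per kb. *Ccl6* did not overlap *Ccl9* in any library, while *Ccl9* and *Ccl5* overlapped. Below these 3 came *Cxcl16* with 19.3 ± 7.97, *Cxcl10* with 10.4 ± 2.34, *Ccl3* with 9.45 ± 1.99 and *Cxcl9* with 7.56 ± 1.70 CPM per kb. *Ccl2* with 3.07 ± 2.67 and *Ccl4* with 3.02 ± 0.401 CPM per kb followed, and *Cxcl2* was lowest with 0.220 ± 0.177 CPM per kb. From *Cxcl16* down to *Ccl4* the range of each ligand over the 6 mice overlapped that of its neighbour in this order, so that these ranges do not separate neighbours there. All ligands were measured in the same libraries, and the order of neighbours within each library was not compared. Ligands farther apart could be separated, since the whole range of *Ccl4* lay below those of *Cxcl9*, *Ccl3*, *Cxcl10* and *Cxcl16*, and the range of *Ccl2* below that of *Cxcl16*. The ranges of *Ccl5* and *Cxcl16*, and of *Ccl4* and *Cxcl2*, did not overlap.

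**Figure D1:**
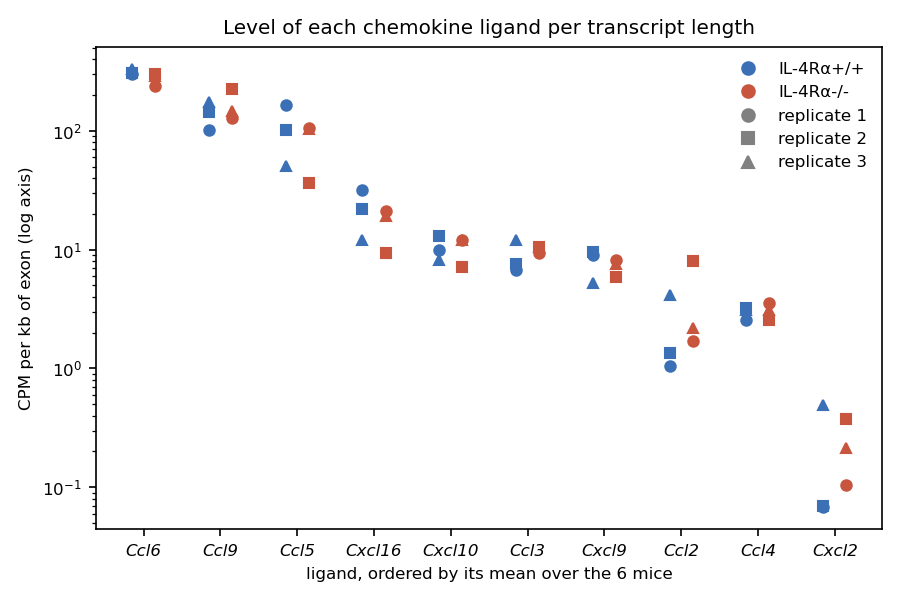
Level of each ligand as CPM per kb of exon on a log axis, with 1 point per mouse, colour for the genotype and shape for the replicate number. *Ccl6* lies between 237 and 331 CPM per kb and *Cxcl2* between 0.0680 and 0.493 CPM per kb.

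None of the 10 ligands was called different between the genotypes at an adjusted p under 0.15 by edgeR's quasi-likelihood test, where 0% of the 13849 genes were called. None had an unadjusted p under 0.05 either, against 8.09% of all genes. Of the 10, 5 were higher and 5 lower in IL-4Rα-/- mice, with a median log2 difference of 0.026 beside 0.0084 over all genes tested. With DESeq2, which called 0.571% of 14003 genes, and with limma voom, the number of ligands called was also 0. Only *Ccl6* had levels that did not overlap between the genotypes. It was lower in IL-4Rα-/- mice, a pattern that 7.87% of all genes showed, and 15.5% of genes did not overlap in either direction. With 3 mice per genotype an exact permutation test of a single gene cannot give a two-sided p below 0.10. The replicates are separate mice, but the labels do not say whether they were processed together.

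**Figure D2:**
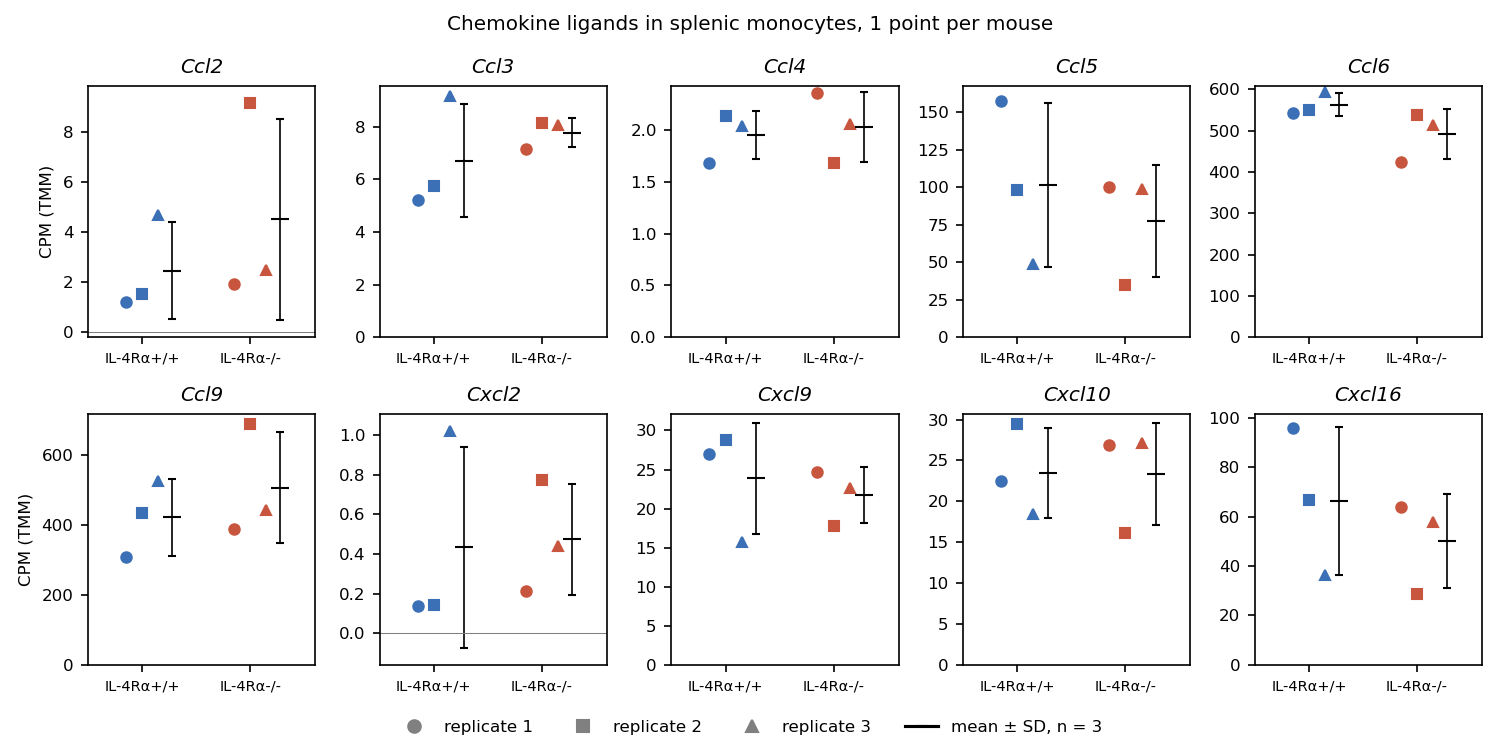
CPM of each ligand in each mouse, on a linear axis with its own scale for each gene; shapes mark replicate numbers, and the bar at the right of each genotype is the mean ± SD of 3 mice. The genotypes overlap for 9 of the 10 ligands, and the error bars of *Ccl2*, *Ccl5*, *Cxcl2* and *Cxcl16* are wide, as single mice stand apart within a genotype.

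*Ccl2* encodes the main ligand of *Ccr2*, the monocyte chemoattractant that the study also measured as a plasma protein. The paper reported this protein as lower in plasma of IL-4Rα-/- mice, a measure in blood and not of transcripts in splenic monocytes. The gene (ENSMUSG00000035385.5) lies at chr11:82035571-82037453 on the plus strand. Its counts were 34, 42 and 124 in IL-4Rα+/+ and 54, 261 and 73 in IL-4Rα-/- mice, or 1.19, 1.52 and 4.68 CPM against 1.93, 9.14 and 2.47 CPM. IL-4Rα-/- 2 and IL-4Rα+/+ 3 were thus the highest of the 6 libraries, and the genotypes overlapped. The mean was 2.47 ± 1.93 CPM in IL-4Rα+/+ and 4.51 ± 4.02 CPM in IL-4Rα-/- mice (SD, n = 3 each). The log2 difference of 0.87 (SE 0.76) was not called, with an edgeR adjusted p of 0.739 and an exact permutation p of 0.50. Its 95% interval, from -0.95 to 2.70, left room for a level between 0.518-fold and 6.50-fold of that in IL-4Rα+/+ mice. The value depended on single mice, with a log2 difference of -0.16 without IL-4Rα-/- 2, of 1.73 without IL-4Rα+/+ 3 and of 0.70 without both.

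*Ccl3* and *Ccl4* are neighbouring genes of inflammatory CC ligands, and the product of *Ccl3* acts on *Ccr1*. *Ccl3* (ENSMUSG00000000982.5, chr11:83647844-83649355, minus strand) was at 5.20, 5.75 and 9.17 CPM in IL-4Rα+/+ and at 7.14, 8.13 and 8.05 CPM in IL-4Rα-/- mice. IL-4Rα+/+ 3 was above all knockout mice and the other wild-type mice below them. The means were 6.71 ± 2.15 and 7.77 ± 0.548 CPM (SD, n = 3), with a log2 difference of 0.21 (SE 0.24, 95% interval -0.36 to 0.79, edgeR adjusted p = 0.786). *Ccl4* (ENSMUSG00000018930.3, chr11:83662584-83664683, plus strand) was at 1.69, 2.13 and 2.04 CPM in IL-4Rα+/+ and at 2.36, 1.68 and 2.06 CPM in IL-4Rα-/- mice. After *Cxcl10* it differed least between the genotypes on the log2 scale, with means of 1.95 ± 0.236 and 2.03 ± 0.338 CPM. The log2 difference of *Ccl4* was 0.06 (SE 0.24, 95% interval -0.52 to 0.63), with an edgeR adjusted p of 0.945. Without IL-4Rα+/+ 3 the log2 difference of *Ccl3* was 0.51 with an unadjusted p of 0.0279 and an edgeR adjusted p of 0.408.

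*Ccl5*, a ligand of *Ccr1* and *Ccr3* that T and NK cells also make in large amounts, varied widely among the mice. The gene (ENSMUSG00000035042.2) lies at chr11:83525778-83530518 on the minus strand. It was at 158, 98.0 and 48.7 CPM in IL-4Rα+/+ and at 100.2, 34.6 and 98.6 CPM in IL-4Rα-/- mice. IL-4Rα+/+ 1 was highest and IL-4Rα-/- 2 lowest, a ratio of 4.56. The means were 102 ± 54.6 and 77.8 ± 37.4 CPM (SD, n = 3), and the log2 difference was -0.38 (SE 0.52, 95% interval -1.64 to 0.87), with an edgeR adjusted p of 0.817 and an exact permutation p of 0.70. It was 0.085 without IL-4Rα+/+ 1 and -0.029 without IL-4Rα-/- 2. The summed level of 12 T and NK cell markers was 24.7, 69.2 and 19.8 CPM in IL-4Rα+/+ and 32.8, 20.2 and 64.4 CPM in IL-4Rα-/- mice. None of the 12 markers was at 0 in all libraries, and the part of T and NK cells in the *Ccl5* levels was not tested.

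*Ccl6* and *Ccl9* are CC ligands of rodents that act on *Ccr1* and are made by myeloid cells without stimulation. *Ccl6* (ENSMUSG00000018927.3, chr11:83587882-83593087, minus strand) was at 543, 550.2 and 595 CPM in IL-4Rα+/+ and at 425, 539 and 515 CPM in IL-4Rα-/- mice. All 3 knockout mice were below all 3 wild-type mice, but IL-4Rα-/- 2 was close to IL-4Rα+/+ 1. The means were 563 ± 27.9 and 493 ± 60.2 CPM (SD, n = 3), and the log2 difference was -0.19 (SE 0.11, 95% interval -0.45 to 0.06). The edgeR adjusted p was 0.642, and the exact permutation p was 0.10, the smallest that 3 against 3 mice can give. *Ccl9* (ENSMUSG00000019122.8, chr11:83572919-83578636, minus strand) was at 308, 434 and 527 CPM in IL-4Rα+/+ and at 390.1, 689 and 443 CPM in IL-4Rα-/- mice. Its highest library was IL-4Rα-/- 2, followed by IL-4Rα+/+ 3, and the genotypes overlapped. The log2 difference of *Ccl9* was 0.26 (SE 0.27, 95% interval -0.38 to 0.91), with an edgeR adjusted p of 0.768, and without IL-4Rα-/- 2 it was -0.022.

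Basophils, mast cells and macrophages can also make several of these ligands. The summed level of 8 basophil and mast cell markers was 11.8 to 27.2 CPM in IL-4Rα+/+ and 38.3 to 70.0 CPM in IL-4Rα-/- mice, and all 8 had a higher mean in the knockout, among them *Prss34*, a basophil protease, with 11.6, 3.44 and 12.0 CPM against 32.0, 16.4 and 23.1 CPM. Red pulp macrophage markers summed to 2863 to 3384 CPM in IL-4Rα+/+ and 3876 to 6168 CPM in IL-4Rα-/- mice, with 10 of 10 higher in the knockout. None of the markers of either list was at 0 in all libraries, and the part of these cells in the ligand levels was not tested. *Ccl6*, which was not called, was lower in IL-4Rα-/- mice, while both marker sums were higher. IL-4Rα-/- 1 had the lowest *Ccl6* and the highest sum of both lists. IL-4Rα+/+ 3 had the highest *Ccl6*, with 595 CPM, and the highest wild-type sum of basophil and mast cell markers, but the lowest sum of red pulp macrophage markers. Whether these values are related was not tested.

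*Cxcl2* acts on *Cxcr2* and attracts neutrophils, and it is known to be induced within minutes to hours by NF-κB. The 222 bases before the gene are shown because *Cxcl2* is the least abundant and, with *Ccl2*, the most variable ligand. They come from the RefSeq promoter table on GRCm38.p6, which holds 6 of the 10 ligands, and capitals mark an overlapping pair of matches to the κB motif.
Cxcl2 (chr5:90903649-90903870, plus strand): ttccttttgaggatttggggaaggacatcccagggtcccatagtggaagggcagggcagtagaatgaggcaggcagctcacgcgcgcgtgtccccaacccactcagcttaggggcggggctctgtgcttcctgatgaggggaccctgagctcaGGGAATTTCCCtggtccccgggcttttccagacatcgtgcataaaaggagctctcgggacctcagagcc
The gene itself (ENSMUSG00000058427.10) lies at chr5:90903871-90905938 on the plus strand. It had 4, 4 and 27 reads in IL-4Rα+/+ and 6, 22 and 13 reads in IL-4Rα-/- mice, or 0.141, 0.145 and 1.02 CPM against 0.214, 0.771 and 0.440 CPM. IL-4Rα+/+ 3 and IL-4Rα-/- 2 were again the highest. The log2 difference was 0.14 (SE 0.87, edgeR adjusted p = 0.965), and its 95% interval of -1.96 to 2.24 spans levels from 0.257-fold to 4.73-fold of the wild type, with few reads and a wide spread between mice. Neutrophil markers, which include *Cxcr2*, summed to 380 to 716 CPM in IL-4Rα+/+ and 492 to 1105 CPM in IL-4Rα-/- mice, with the highest sum in IL-4Rα-/- 2. *Csf3r* and *Mmp8* supplied most of each sum. *Csf3r* was at 299, 364 and 438 CPM against 328, 423 and 357 CPM, and *Mmp8* at 13.7, 36.3 and 170 CPM against 49.2, 305 and 50.0 CPM. *S100a8* was at only 9.66, 4.45 and 18.0 CPM against 34.2, 91.3 and 14.7 CPM. Of the 13 neutrophil markers that could be tested, 3 had their 2 highest levels in IL-4Rα+/+ 3 and IL-4Rα-/- 2. Among all 13849 genes tested, 2409 did so. Of these 14 markers 13 had a higher mean in the knockout and none was at 0 in all libraries, and their part in the *Cxcl2* reads was not tested.

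*Cxcl9* and *Cxcl10* are ligands of *Cxcr3*, the receptor of activated T and NK cells, and both are known as interferon-induced genes. The 250 bases before *Cxcl10* are shown because this promoter held the most matches of the 6 that could be read, with 3 to the κB motif and 1 to an interferon response element, written as GAAA and GAAA with 2 bases between them.
Cxcl10 (chr5:92348890-92349139, minus strand, GRCm38.p6): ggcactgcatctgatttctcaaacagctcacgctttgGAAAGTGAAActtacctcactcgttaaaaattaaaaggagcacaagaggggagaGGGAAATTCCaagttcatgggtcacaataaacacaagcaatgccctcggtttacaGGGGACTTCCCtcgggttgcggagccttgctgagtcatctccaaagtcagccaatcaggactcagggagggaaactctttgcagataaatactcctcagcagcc
Capitals mark, in this order, the interferon response element at 213 to 204 bases before the gene, a κB match at 159 to 150 bases, and an overlapping pair of κB matches at 104 to 94 bases. Motifs were searched on both strands of the bases before each gene in the 32851 promoters of the table, of which 9.55% held the κB motif and 2.98% the interferon response element. *Ccl9* held 1 κB match. None of the 6 promoters held a gamma activated site (TTC and GAA with 3 bases between them, in 7.02% of promoters) or a STAT6 site (TTC and GAA with 4 bases between them, in 5.85%). *Ccl3*, *Ccl6* and *Cxcl9* held no match to any of these motifs in the window. Only exact matches to these patterns were counted, so sites that depart from them are missed. The absence of a match does not show that a promoter lacks such a site.

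*Cxcl9* (ENSMUSG00000029417.9, chr5:92321347-92328079, minus strand) was at 27.0, 28.8 and 15.8 CPM in IL-4Rα+/+ and at 24.7, 17.8 and 22.6 CPM in IL-4Rα-/- mice. IL-4Rα+/+ 3 and IL-4Rα-/- 2 were the lowest of the 6, one in each genotype. The log2 difference of *Cxcl9* was -0.14 (SE 0.24, 95% interval -0.72 to 0.45), with an edgeR adjusted p of 0.856. *Cxcl10* (ENSMUSG00000034855.13, chr5:92346638-92348889, minus strand) was at 22.5, 29.4 and 18.5 CPM in IL-4Rα+/+ and at 26.9, 16.1 and 27.1 CPM in IL-4Rα-/- mice, with the same libraries lowest. Its means were 23.5 ± 5.52 and 23.4 ± 6.26 CPM (SD, n = 3), and its log2 difference was the smallest of the 10 ligands, -0.01 (SE 0.25, 95% interval -0.60 to 0.59, edgeR adjusted p = 0.994). The interval still allowed a level between 0.659-fold and 1.50-fold of the wild type. Exons of *Art3* on the other strand cover 5.91% of the exon bases of *Cxcl10*, and since the strand setting of the counting is not stated, reads there are uncertain.

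*Cxcl16* encodes a ligand of *Cxcr6* that is made as a transmembrane protein and also binds oxidised lipoproteins. The gene (ENSMUSG00000018920.11) lies at chr11:70453983-70459984 on the minus strand. It was at 96.0, 66.7 and 36.3 CPM in IL-4Rα+/+ and at 64.0, 28.5 and 57.9 CPM in IL-4Rα-/- mice, lowest in IL-4Rα-/- 2 and IL-4Rα+/+ 3. The means were 66.3 ± 29.8 and 50.1 ± 19.0 CPM (SD, n = 3), and the log2 difference was -0.40 (SE 0.42, 95% interval -1.40 to 0.59), with an edgeR adjusted p of 0.768 and an exact permutation p of 0.50. It was -0.039 without IL-4Rα+/+ 1 and -0.12 without IL-4Rα-/- 2. Exons of *Zmynd15* on the other strand cover 18.3% of its exon bases, with the same uncertainty as for *Cxcl10*.

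**Figure D3:**
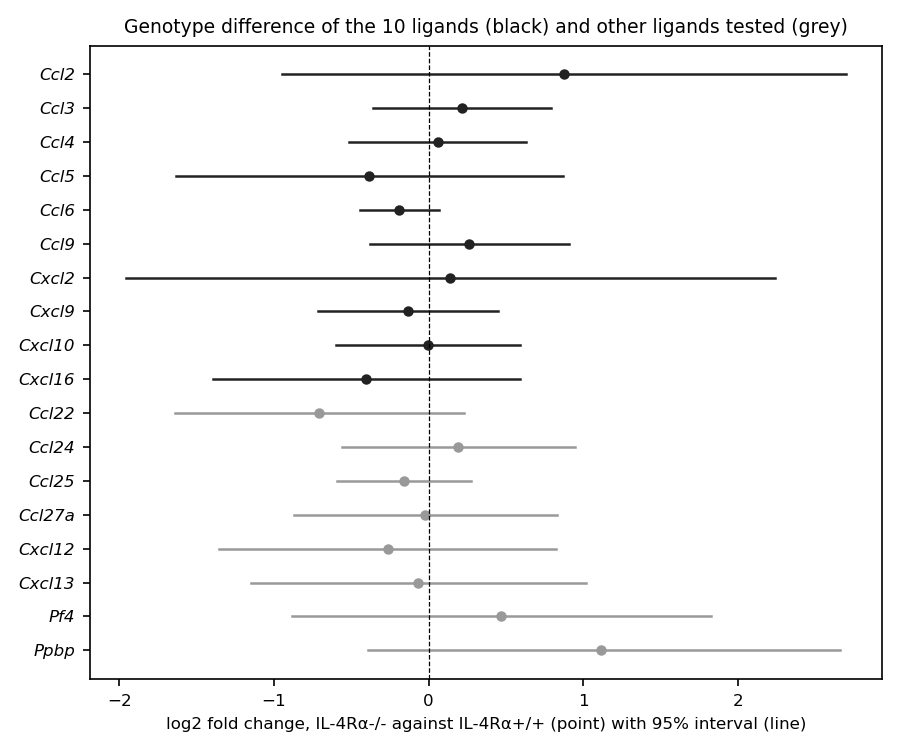
Log2 difference between IL-4Rα-/- and IL-4Rα+/+ mice (points) with its 95% interval (lines) from edgeR, for the 10 ligands in black and for the 8 other chemokine ligands that could be tested in grey. All intervals include 0, and they are widest for *Cxcl2* (-1.96 to 2.24) and *Ccl2* (-0.95 to 2.70) and narrowest for *Ccl6* (-0.45 to 0.06).

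Of the other 28 mouse chemokine ligands examined, 8 could be tested and none was called or had an unadjusted p under 0.05, with 3 higher and 5 lower and a median log2 difference of -0.04. *Ccl22*, a ligand of *Ccr4* known to be induced by IL-4, was the most abundant of them, at 24.2, 16.9 and 11.4 CPM in IL-4Rα+/+ and at 13.5, 5.74 and 12.9 CPM in IL-4Rα-/- mice. Its log2 difference was -0.71 (SE 0.39, edgeR adjusted p = 0.642), and the genotypes overlapped. *Ccl24*, a ligand of *Ccr3* also known to be induced by IL-4, was at 2.53, 2.35 and 2.68 CPM against 3.75, 1.72 and 3.18 CPM, a log2 difference of 0.19 (SE 0.32). These were the only ones with enough reads among the 6 chemokines listed here as induced by IL-4 and STAT6, 1 higher and 1 lower, and neither was called. The list need not hold every chemokine that IL-4 induces. *Ccl25*, *Ccl27a*, *Cxcl12*, *Cxcl13* and the platelet ligands *Pf4* and *Ppbp* made up the rest, with log2 differences between -0.27 for *Cxcl12* and 1.12 for *Ppbp*. Of the 20 ligands without a test, 7 had 0 reads in all 6 libraries, namely *Ccl1*, *Ccl20*, *Ccl21a*, *Ccl26*, *Cxcl3*, *Cxcl15* and *Cxcl17*, where a count of 0 allows up to 3 reads, or 0.112 CPM in the shallowest library. A further 5 had at most 3 reads in any library, and the highest count among the remaining 8 was 25 reads, for *Cx3cl1*.

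Receptors of the 10 ligands were measured in the same cells. Of the 9 receptors listed, 8 could be tested, and none was called. Of the 8, 6 were higher and 2 lower in IL-4Rα-/- mice, with a median log2 difference of 0.49, which was 0.022 without IL-4Rα-/- 2. Unadjusted p-values were under 0.05 for *Ccr3* and *Cxcr2*, both higher in the knockout with no overlap, beside 8.09% of all genes under 0.05 and 7.63% higher with no overlap. *Ccr3*, the eotaxin receptor and a marker of eosinophils, was at 52.7, 67.1 and 66.9 CPM in IL-4Rα+/+ and at 137, 89.7 and 73.4 CPM in IL-4Rα-/- mice, a log2 difference of 0.69 (SE 0.24, edgeR adjusted p = 0.618). *Cxcr2*, the neutrophil receptor of *Cxcl2*, was at 1.69, 1.70 and 1.43 CPM against 2.07, 5.08 and 2.98 CPM, a log2 difference of 1.07 (SE 0.36, edgeR adjusted p = 0.618). The 7 eosinophil markers, *Ccr3* among them, summed to 68.6 to 72.1 CPM in IL-4Rα+/+ and 98.7 to 157 CPM in IL-4Rα-/- mice. Of the 7, 6 were higher in the knockout. *Ccr3* itself supplied most of each sum, so the sums largely repeat its levels and are not a separate measure of eosinophils. The part of eosinophils in the receptor levels was not tested.

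*Ccr2*, the receptor of *Ccl2* and the most abundant of these receptors, was at 380, 1045 and 1668 CPM in IL-4Rα+/+ and at 826, 2008 and 979 CPM in IL-4Rα-/- mice. *Ccr1* was at 6.11, 12.1 and 48.8 CPM against 10.5, 187 and 19.9 CPM. Both were highest in IL-4Rα-/- 2 and next in IL-4Rα+/+ 3, so the spread within a genotype was large, and the log2 differences of 0.30 (SE 0.56) for *Ccr2* and 1.70 (SE 1.22) for *Ccr1* were within it. *Cxcr3*, *Cxcr6* and the scavenging receptor *Ackr1* were at 0.490 to 3.58 CPM, and *Ackr2* had too few reads to be tested.

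**Figure D4:**
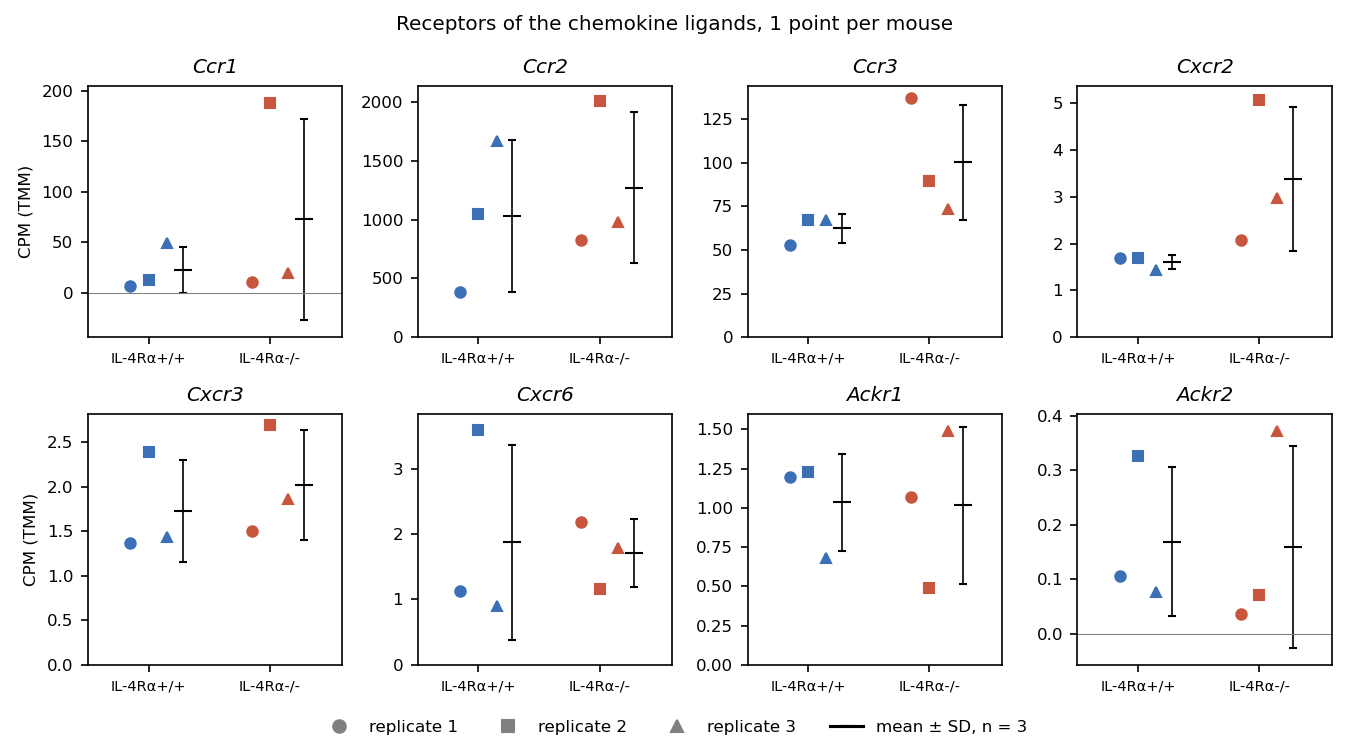
CPM of 8 receptors of the ligands in each mouse, on a linear axis with its own scale for each gene; shapes mark replicate numbers and bars the mean ± SD of 3 mice. *Ccr1* and *Ccr2* are highest in IL-4Rα-/- 2, at 187 and 2008 CPM, and second in IL-4Rα+/+ 3.

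Mice of the same genotype differed more in several ligands than in most other genes. The SD of log2 CPM within genotypes was 1.11 for both *Ccl2* and *Cxcl2*, 0.86 for *Ccl5* and 0.67 for *Cxcl16*, beside a median of 0.20 over all genes tested. Only 2.35% of genes had a larger SD than *Ccl2*, 4.78% than *Ccl5* and 9.03% than *Cxcl16*. *Ccl6* at 0.14 and *Ccl4* at 0.21 were near or below the median gene. The genes compared were not matched for level. *Cxcl2* had 4 to 27 reads per library and *Ccl2* had 34 to 261, and the part of counting noise in these SDs was not tested.

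The spread had a common form, which was noticed after the values were seen and is given as a description. IL-4Rα+/+ 3 and IL-4Rα-/- 2, which belong to different genotypes, held the 2 highest of the 6 levels for *Ccl2*, *Ccl3*, *Ccl9* and *Cxcl2* and the 2 lowest for *Ccl5*, *Cxcl9*, *Cxcl10* and *Cxcl16*. These were 8 of the 10 ligands, beside 33.6% of all genes tested, and *Ccl4* and *Ccl6* were the exceptions. Among the 8 other ligands tested, *Ccl22* was lowest in the same mice.

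The same libraries were at the ends for markers of the monocyte subsets. *Nr4a1*, the transcription factor that Ly6C-low monocytes depend on, was at 828 CPM in IL-4Rα+/+ 3 and 539 CPM in IL-4Rα-/- 2, beside 1024 to 1439 CPM in the other 4 libraries. *Ace*, *Treml4* and *Spn*, which also mark Ly6C-low monocytes, were lowest in these libraries too, with *Spn* at 401 and 280 CPM beside 722 to 1186 CPM. *Ccr2* and *Fcgr1*, which mark Ly6C-high monocytes, were highest in them. *Ly6c2*, which encodes Ly6C itself, was highest in IL-4Rα-/- 2 with 592 CPM, but IL-4Rα-/- 3 with 503 CPM was above IL-4Rα+/+ 3 with 427 CPM. Of the 13 monocyte markers, 3 had their 2 highest and 5 their 2 lowest levels in these mice, beside 2409 and 2251 of all 13849 genes tested. None of the 13 was called between the genotypes.

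**Figure D5:**
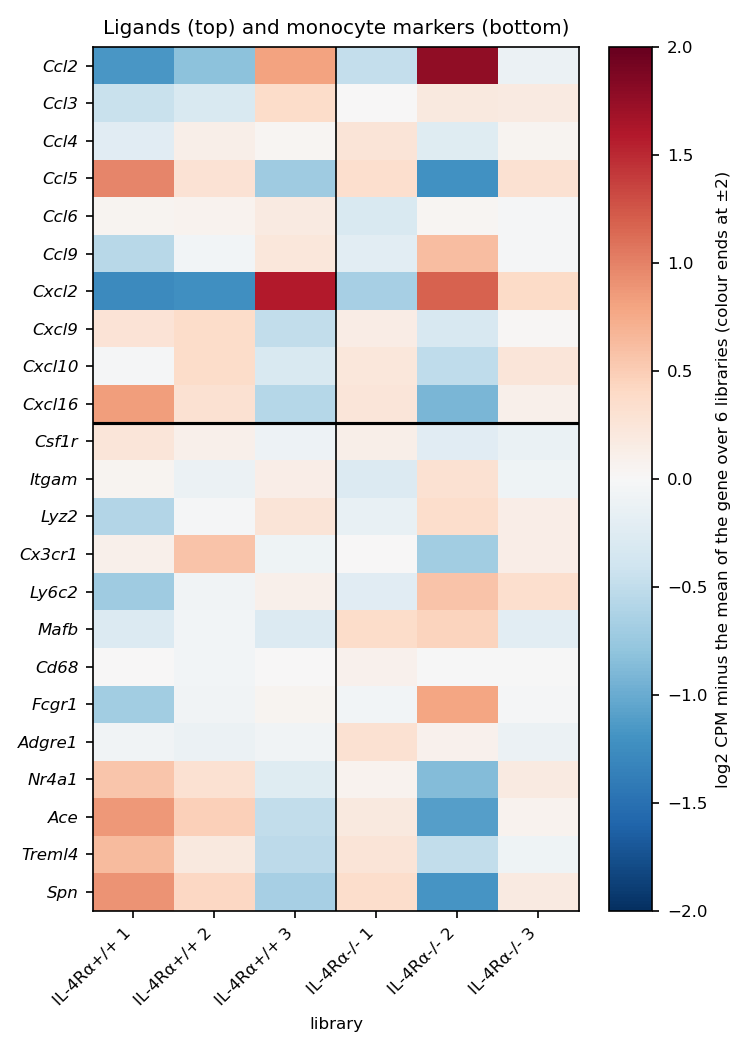
Log2 CPM of each gene minus its mean over the 6 libraries, in colour, for the 10 ligands (above the line) and 13 monocyte markers (below it), with the IL-4Rα+/+ libraries at the left and the IL-4Rα-/- libraries at the right. IL-4Rα+/+ 3 and IL-4Rα-/- 2 are red for *Ccl2*, *Ccl3*, *Ccl9* and *Cxcl2* and blue for *Ccl5*, *Cxcl9*, *Cxcl10*, *Cxcl16*, *Nr4a1*, *Ace*, *Treml4* and *Spn*.

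Of 19 NF-κB and immediate early genes, which respond within minutes to stimuli and to handling of cells, 12 had their 2 highest levels in IL-4Rα+/+ 3 and IL-4Rα-/- 2, beside 2409 of all 13849 genes tested. *Fosb* was at 118 and 106 CPM in these beside 3.04 to 27.2 CPM in the other 4 libraries, and *Egr1* at 167 and 108 CPM beside 15.6 to 54.5 CPM. *Nfkb1*, *Nfkbiz* and *Tnfaip3* had their 2 lowest levels there instead. None of the 19 genes was called between the genotypes, 11 were higher and 8 lower in IL-4Rα-/- mice, and *Rel*, a subunit of NF-κB, was the only one with an unadjusted p under 0.05, with a log2 difference of -0.53 (SE 0.21, edgeR adjusted p = 0.618).

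Of 17 interferon-induced genes, 16 could be tested, and 7 of them, as *Cxcl9* and *Cxcl10*, had their 2 lowest levels in IL-4Rα+/+ 3 and IL-4Rα-/- 2. Among all 13849 genes tested, 2251 had their 2 lowest levels there. Not all of the list followed, as *Irgm1* was highest in IL-4Rα-/- 2 with 159 CPM and at 149 CPM in IL-4Rα+/+ 3. *Ifit3*, an antiviral gene and 1 of the 7, was at 39.7 and 43.2 CPM in IL-4Rα+/+ 3 and IL-4Rα-/- 2 beside 60.9 to 92.1 CPM in the other 4 libraries. Between the genotypes none of the 16 was called, 10 were higher and 6 lower, and the median log2 difference was 0.03. *Irf1*, an interferon-induced transcription factor, had the only unadjusted p under 0.05, with a log2 difference of -0.18 (SE 0.07, edgeR adjusted p = 0.618). The part of these gene groups and of the monocyte subsets in the ligand levels was not tested.

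Other measures set single libraries or the genotypes apart. Pancreatic acinar markers summed to 315 CPM in IL-4Rα-/- 2 and to 10.4 to 48.0 CPM in the other 5 libraries, and *Prss1*, a trypsinogen, was at 0 in all. Reads of *Xist* were high in IL-4Rα+/+ 1 with 553 CPM and in IL-4Rα-/- 3 with 457 CPM and at most 3.73 CPM in the other 4 libraries, and the labels do not give the sex of the mice. Erythroid markers summed to 49.5 to 96.3 CPM in IL-4Rα+/+ and 132 to 318 CPM in IL-4Rα-/- mice, with no overlap. All 8 were higher in the knockout, 6 of them with no overlap, beside 7.63% of all genes. B and plasma cell markers summed to 126 to 195 CPM in IL-4Rα+/+ and 191 to 243 CPM in IL-4Rα-/- mice. Dendritic cell markers summed to 213 to 302 and 187 to 261 CPM, and platelet markers to 3.00 to 4.04 and 3.71 to 7.35 CPM, with *Gp1bb* at 0 in all libraries. Without both IL-4Rα+/+ 3 and IL-4Rα-/- 2, which leaves 2 mice per genotype, the number of ligands called was also 0, and none of those with enough reads, all but *Cxcl2*, had an unadjusted p under 0.05.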

How the data were processed

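Libraries came from splenic monocytes of 6 mice. Reads (75 bp, single-end) were mapped to GRCm38 with STAR 2.6.1a, and the authors deposited raw, not normalized, counts per gene. Which strand column was kept is not given in the sources used here. STAR's summary lines were left out, so that 77.2% to 78.9% of 34312041 to 37007178 reads per library were used. Gene names, exon lengths and positions came from Gencode M21 on GRCm38, in which 55240 of 55421 gene identifiers were found.

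Low genes were removed with filterByExpr (minimum count 10) and libraries scaled by TMM. For the 13849 genes left, genotypes were compared by the edgeR (4.0.16, under R 4.3.3) quasi-likelihood F-test, and p-values were adjusted by Benjamini-Hochberg over all of them, at the 0.15 threshold of the study's methods. A two-sided exact permutation test over 20 labelings was used for single genes. DESeq2 1.42.0, limma 3.58.1 (voom), other normalizations and filters, removal of a trend with transcript length (loess, span 0.5), *Xist* as a covariate, the replicate number as a block and leaving out each mouse were alternatives. Leaving out IL-4Rα+/+ 3 and IL-4Rα-/- 2 together was added once values had been seen. Scripts were tested on simulated data.

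The 10 ligands and the 17 gene lists were chosen with earlier results of these data known. Named were the 10 ligands, *Il4ra*, the other ligands and receptors tested, up to 4 genes of highest mean in each other list, and any gene of a functional list with an unadjusted p under 0.05. *Ifit3*, *Fosb*, *Egr1*, *Treml4*, *Spn*, *Fcgr1*, *Ly6c2*, *Tnfaip3*, *Nfkbiz*, *Prss1*, *Gp1bb*, *Xist*, *Art3*, *Zmynd15*, *Cx3cl1* and ligands with 0 reads were named outside this rule after their values were seen. Some genes counted in the lists are not reported here by name.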

Additional observations from a re-analysis of the deposited data

How the results depend on the processing

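No alternative called any of the 10 ligands. The number of genes called was 0 in every other setting except 80 with DESeq2 and 1, *Il4ra*, without both IL-4Rα+/+ 3 and IL-4Rα-/- 2. The number of ligands with an unadjusted p under 0.05 was 1 (*Ccl6*) with the length trend removed, 1 with the replicate block and the length trend removed, and 0 to 1 when each mouse was left out, where the 1 was *Ccl3* without IL-4Rα+/+ 3. *Ccl3*, *Ccl6* and *Cxcl16* had the same direction in all 17 alternatives, though without single mice the log2 difference ranged from 0.059 to 0.51, from -0.26 to -0.099 and from -0.70 to -0.039. Direction turned for *Ccl4* with the length trend removed (log2 difference -0.066) and also with the block (-0.072), and for *Cxcl10* with upper quartile normalization (0.017), with the *Xist* covariate (0.0038) and without both mice (0.057). When each mouse was left out, log2 differences ranged from -0.16 to 1.73 for *Ccl2*, from -0.065 to 0.18 for *Ccl4*, from -0.72 to 0.085 for *Ccl5*, from -0.022 to 0.45 for *Ccl9*, from -0.39 to 1.71 for *Cxcl2*, from -0.36 to 0.021 for *Cxcl9* and from -0.15 to 0.20 for *Cxcl10*. The cause of these turns was not tested. Median log2 differences of the lists ranged, without single mice, from 0.022 to 0.79 for the receptors, from -0.48 to 0.027 for the IL-4 and STAT6 induced chemokines, from -0.17 to 0.10 for the other ligands, from -0.11 to 0.15 for the interferon-induced genes and from -0.098 to 0.42 for the NF-κB and immediate early genes. *Cxcl2* had too few reads for a value under the stricter filter and without both mice. Same-numbered libraries had correlations of 0.18, -0.27 and -0.30 in their deviations from the genotype means, and the highest of all pairings was 0.46, between IL-4Rα+/+ 3 and IL-4Rα-/- 2, so the numbers were not taken as pairs. With the replicate block 0 genes and 0 ligands were called, and the log2 difference was 0.77 for *Ccl2* and -0.20 for *Ccl6*.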
